A study of Mus musculus with 21 samples.

Results

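Cell cycle and DNA replication genes were followed in RNA-seq counts of whole mouse liver. The 42 genes were taken by gene symbol and placed in 3 classes named for phases of the cycle: 9 genes of G1 and the G1/S transition, 16 genes of S phase and 17 genes of G2 and M phase. The S phase class includes Cdc6 and the Mcm genes, although the Mcm helicase is loaded on DNA in G1. They are 42 of the 55418 genes counted, and all 42 were among the 15677 genes with enough reads to be tested. The 21 libraries came from 4 groups: 4 livers with Mboat7 deleted in hepatocytes (KO) on a choline-deficient, low-methionine, high-fat diet (HFMCD), 4 wild-type (WT) livers on HFMCD, 7 KO livers on chow and 6 WT livers on chow. HFMCD was fed for 6 weeks, starting at 6 to 8 weeks of age, whereas chow mice were 10 weeks old. Animals on the 2 diets also carried separate ranges of animal numbers, so diet, age and any batch behind those numbers cannot be told apart. The promoter that drives the deletion is not given in the sources used here.

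Levels are in CPM, the counts of a gene per 1e+06 counts of the scaled library total. A gene was called when its Benjamini-Hochberg adjusted p, over all 15677 genes of the comparison, was under 0.05 in edgeR's quasi-likelihood test. Total counts ran from 22617598 to 25822972 in HFMCD libraries and from 17502231 to 23058789 in chow libraries. Mboat7, an acyltransferase gene of phosphatidylinositol remodelling, had its KO libraries wholly below the WT libraries on either diet, at 18.9 ± 2.24 CPM in KO and 36.3 ± 1.47 CPM in WT on HFMCD (SD, n = 4 each) and 21.3 ± 1.77 CPM in KO (SD, n = 7) and 36.2 ± 2.72 CPM in WT (SD, n = 6) on chow. Markers of hepatocytes were abundant in every liver, with a summed level from 92100 to 142433 CPM. In whole liver, fewer cells of a type and less RNA per cell cannot be told apart, so a level here is a level of the tissue. KO chow replicates 1 and 7 and WT chow replicates 3 and 5 also held transcripts of other tissues (Dmbt1, Muc6, Ttn and Myh11), with summed levels of 167, 428, 82.1 and 43.2 CPM, against at most 7.31 CPM in any other library.

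A dividing cell passes from G1, in which D-type cyclins activate Cdk4, into S phase, in which DNA loaded with the Mcm helicase is copied, and then through G2 into mitosis, which Cdk1 with its B-type cyclins drives. E2F transcription factors, held back by RB proteins until cyclin-dependent kinases act, switch on many genes of DNA replication, while genes of G2 and mitosis are typically read later through the MuvB complex with B-MYB and FOXM1, at a promoter element called CHR that often lies near CCAAT boxes bound by NF-Y. Most hepatocytes of an adult liver are quiescent and can re-enter the cycle after tissue loss or injury, and macrophages, endothelial, duct and stellate cells can divide too.

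Promoter sequences of the members were compared by these elements. Entries were found for 33 of the 42 genes in a RefSeq table of the build GRCm38.p6, each covering 250 bases before to 50 bases after a gene start. Searched on both strands were 4 E2F strings (TTTCCCGC, TTTGGCGC, TTTCGCGC and TTTGCCGC), the CHR string TTTGAA and the NF-Y string CCAAT. CHR strings were present in 10 of 13 G2 and M phase genes (76.9%), 1 of 14 S phase genes (7.14%) and 1 of 6 G1 and G1/S genes (16.7%), beside 15.0% of 11311 tested genes with an entry and 20.2% of all 27025 genes of the table. E2F strings were present in 1 of 13 G2 and M phase genes (7.69%), 8 of 14 S phase genes (57.1%) and 2 of 6 G1 and G1/S genes (33.3%), beside 4.40% of tested genes and 2.6% of all genes of the table. CCAAT stood in 12 of 13, 9 of 14 and 3 of 6 genes of the same classes, beside 42.5% of tested genes. A match describes the letters of this window and is no evidence of a bound factor. For Mcm7, which has 2 entries, the one with E2F strings is shown. The 6 promoters belong to 2 mitotic genes with large diet differences (Cdc20 and Mki67), to the called or strongly changed helicase genes Mcm6 and Mcm5, and to Hells and Mcm7, S phase genes that were not called between diets. Each reads 5′ to 3′ on its gene's strand, with capitals marking the strings found on either strand. In Mcm5 and Mcm6 an E2F string overlaps a second one on the opposite strand, and in Mcm7 an E2F string overlaps CCAAT.
Cdc20, chr4:118437294-118437593, minus strand: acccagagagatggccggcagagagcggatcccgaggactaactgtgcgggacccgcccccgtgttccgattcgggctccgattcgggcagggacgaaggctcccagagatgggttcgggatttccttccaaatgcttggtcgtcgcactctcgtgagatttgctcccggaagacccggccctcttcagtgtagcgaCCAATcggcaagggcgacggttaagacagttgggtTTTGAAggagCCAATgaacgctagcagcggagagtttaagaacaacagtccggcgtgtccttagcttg
Mki67, chr7:135716330-135716629, minus strand: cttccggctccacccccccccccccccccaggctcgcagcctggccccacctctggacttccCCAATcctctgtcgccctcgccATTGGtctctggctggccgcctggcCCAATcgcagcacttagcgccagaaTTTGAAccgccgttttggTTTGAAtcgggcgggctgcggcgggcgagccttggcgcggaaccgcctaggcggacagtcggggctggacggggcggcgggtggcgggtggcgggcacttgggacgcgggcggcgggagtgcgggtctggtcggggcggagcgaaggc
Mcm5, chr8:75109259-75109558, plus strand: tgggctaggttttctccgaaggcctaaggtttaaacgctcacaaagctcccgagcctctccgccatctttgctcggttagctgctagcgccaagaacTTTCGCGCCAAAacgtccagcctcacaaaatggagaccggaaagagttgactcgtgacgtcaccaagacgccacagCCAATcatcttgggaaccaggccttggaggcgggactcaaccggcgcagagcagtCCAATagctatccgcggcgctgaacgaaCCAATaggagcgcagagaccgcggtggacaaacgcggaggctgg
Mcm6, chr1:128359656-128359955, minus strand: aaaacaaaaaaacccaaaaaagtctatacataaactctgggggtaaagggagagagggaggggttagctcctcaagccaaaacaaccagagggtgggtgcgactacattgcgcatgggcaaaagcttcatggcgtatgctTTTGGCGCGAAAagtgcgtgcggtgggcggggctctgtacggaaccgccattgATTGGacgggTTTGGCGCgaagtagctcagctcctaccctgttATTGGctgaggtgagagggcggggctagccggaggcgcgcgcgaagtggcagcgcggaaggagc
Mcm7, chr5:138171834-138172133, minus strand: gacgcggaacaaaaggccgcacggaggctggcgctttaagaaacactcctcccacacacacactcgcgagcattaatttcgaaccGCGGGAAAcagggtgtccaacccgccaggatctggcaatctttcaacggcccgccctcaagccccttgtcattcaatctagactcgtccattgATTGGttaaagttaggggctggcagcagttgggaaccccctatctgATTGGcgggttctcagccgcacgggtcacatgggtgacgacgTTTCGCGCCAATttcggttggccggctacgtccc
Hells, chr19:38930740-38931039, plus strand: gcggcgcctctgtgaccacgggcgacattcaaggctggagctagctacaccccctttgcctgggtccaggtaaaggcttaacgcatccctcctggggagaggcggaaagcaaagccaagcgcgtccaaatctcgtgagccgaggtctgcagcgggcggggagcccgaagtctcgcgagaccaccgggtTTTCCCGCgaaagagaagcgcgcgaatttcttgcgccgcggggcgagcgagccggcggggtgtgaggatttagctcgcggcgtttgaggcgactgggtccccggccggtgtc
Cdc20 and Mki67 hold CHR and CCAAT strings and no E2F string. Mcm5, Mcm6 and Mcm7 hold E2F and CCAAT strings and no CHR string, and Hells holds 1 E2F string alone.

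HFMCD against chow was compared within each genotype, and the G2 and M phase genes separated the diets most widely. All 17 rose on HFMCD in KO and all 17 in WT, and every HFMCD library lay above every chow library of the same genotype for each of them. The share of all tested genes set apart in this way between diets was not counted, so this separation is given as a description. Their median log2 fold change was 3.64 in KO and 3.58 in WT. S phase genes were intermediate, with 13 of 16 called higher in KO (median 1.40) and 12 of 16 in WT (median 1.18), and 0 called lower in either. G1 and G1/S genes were mixed, with 7 called higher and 2 called lower of 9 in KO (median 0.78), and 6 higher and 2 lower in WT (median 0.68). The medians over all tested genes were -0.02 in KO and -0.05 in WT. Ccnb1, Aurkb and Bub1 of G2 and M phase and Uhrf1, Gins2 and Cdc6 of S phase are included in these counts and medians. They passed the low-count filter only with the HFMCD libraries included, so the filter favoured a rise on HFMCD among them. The other 14 G2 and M phase genes and 13 S phase genes would pass on chow libraries alone.

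Large parts of the transcriptome differed between the diets. On HFMCD 33.7% of tested genes rose and 36.0% fell in KO, beside 37 and 2 of the 42 members. In WT 29.0% rose and 33.6% fell, beside 35 and 2 of the members. Rises of more than 2 on the log2 scale were less common, at 7.41% of tested genes in KO and 6.42% in WT, and these included all 17 G2 and M phase genes in both genotypes, 5 S phase genes in KO and 3 in WT, and 0 G1 and G1/S genes. The counts of members here again include the genes that passed the low-count filter only with the HFMCD libraries. Of the members, 35 were higher on HFMCD in both genotypes, Ccnd3 and Cdk2 were lower in both, and Mcm7, Hells and Tk1 were called in neither. Ccne2 and Rrm2 were called in KO alone, but the diet effect did not differ between genotypes beyond error for either (adjusted p = 0.893 and 0.951, edgeR).

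**Figure D1:**
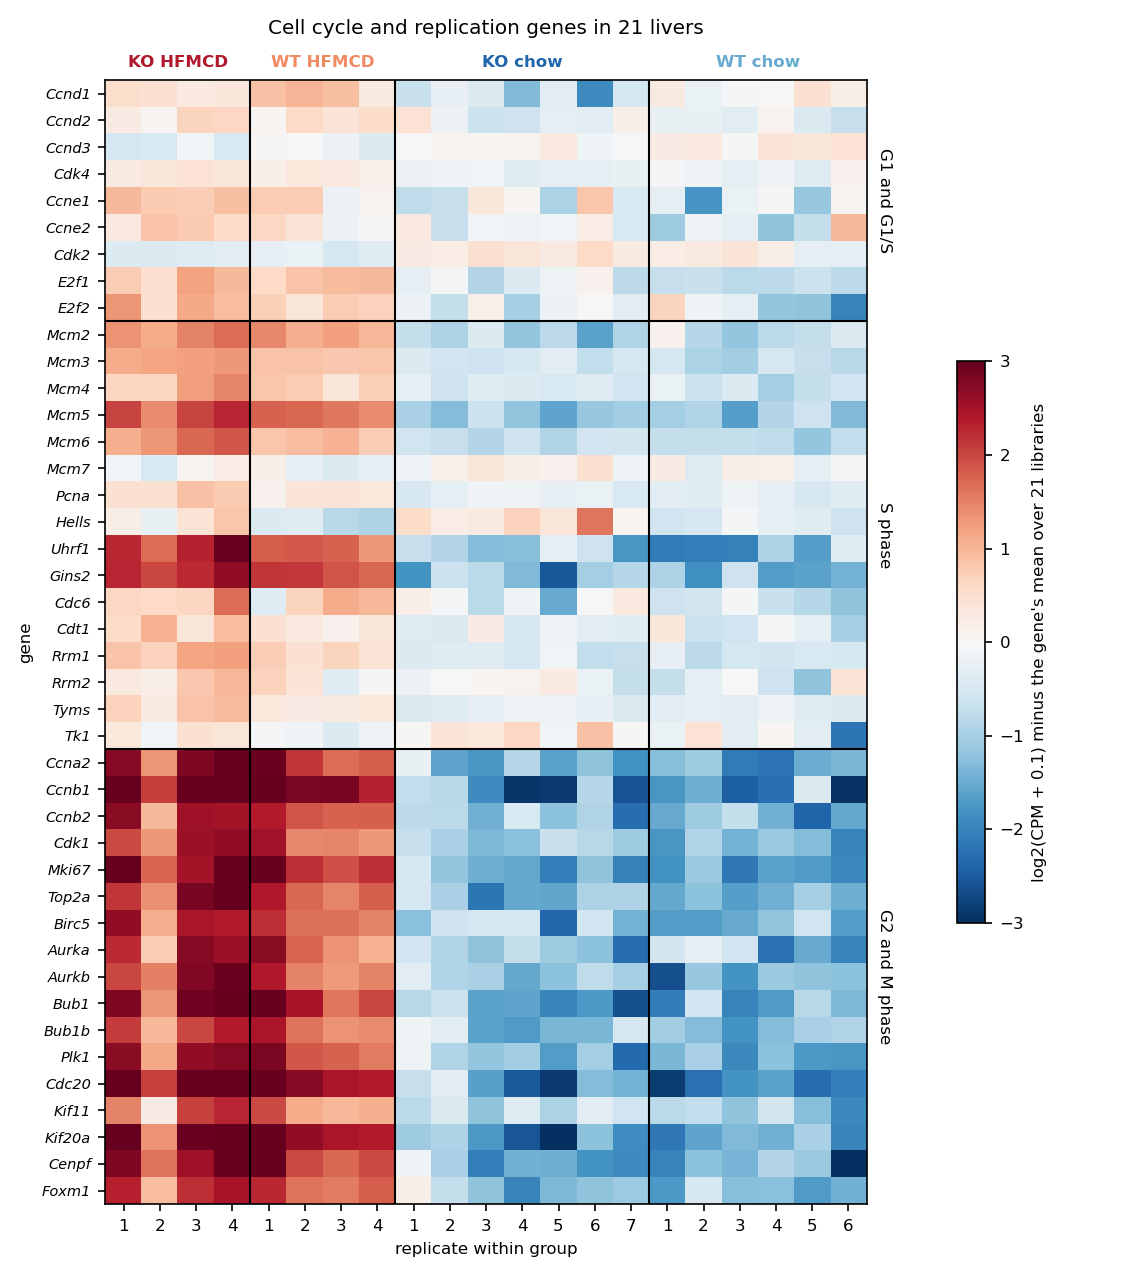
Log2(CPM + 0.1) of the 42 genes (rows, in 3 classes) in the 21 libraries (columns, by group and replicate), each gene centred on its mean over all libraries. The 17 G2 and M phase genes are above their means in all 8 HFMCD libraries, least so in KO HFMCD replicate 2, and the G1 and G1/S genes span a narrower range.

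Among G1 genes, the D-type cyclins did not move together. Ccnd1 encodes cyclin D1, the growth-factor-responsive partner of Cdk4. It stood at 132, 125, 111 and 116 CPM in KO HFMCD livers, against a lowest, median and highest of 24.2, 63.0 and 77.2 CPM in KO chow livers. In WT it stood at 168, 186, 171 and 110.3 CPM on HFMCD, against 79.1, 96.9 and 125 CPM on chow. The diet groups were apart in KO and overlapped in WT. The log2 fold change of HFMCD over chow was 1.09 in KO (SE 0.23, adjusted p = 3.01e-04, edgeR) and 0.68 in WT (SE 0.24, adjusted p = 0.0175, edgeR). Ccnd2, the gene of cyclin D2, stood at 14.6, 13.0, 19.8 and 19.1 CPM in KO HFMCD livers, against 7.91, 10.3 and 16.6 CPM on chow, and at 12.9, 18.4, 16.1 and 18.1 CPM in WT HFMCD livers, against 7.66, 10.2 and 13.4 CPM on chow. The diet groups overlapped in both genotypes, and it rose by 0.58 in KO (SE 0.18, adjusted p = 0.00639, edgeR) and 0.68 in WT (SE 0.19, adjusted p = 0.00289, edgeR).

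Ccnd3, the gene of cyclin D3, went the other way. It stood at 27.1, 28.2, 36.8 and 28.2 CPM in KO HFMCD livers, against 35.5, 40.9 and 48.0 CPM (lowest, median, highest) on chow, and at 39.5, 39.1, 34.7 and 29.2 CPM in WT HFMCD livers, against 37.7, 48.4 and 53.0 CPM on chow. It was lower on HFMCD by a log2 fold change of -0.44 in KO (SE 0.11, adjusted p = 7.74e-04, edgeR) and -0.41 in WT (SE 0.11, adjusted p = 0.00211, edgeR), although 1 or more libraries overlapped in both genotypes. Cdk2, the kinase gene of the G1/S transition and S phase, stood at 9.29, 9.12, 9.49 and 9.93 CPM in KO HFMCD livers and lay below every KO chow liver (14.6, 15.0 and 18.4 CPM). Its log2 fold change was -0.74 in KO (SE 0.12, adjusted p = 1.12e-05, edgeR) and -0.45 in WT (SE 0.13, adjusted p = 0.00312, edgeR), where the groups overlapped.

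Cdk4 and E2f1 rose in both genotypes without overlap. Cdk4, the partner of D-type cyclins, stood at 46.0, 48.0, 50.9 and 47.8 CPM in KO HFMCD livers, against 29.2, 32.3 and 35.9 CPM on chow. WT livers had 42.6, 46.9, 46.3 and 42.4 CPM on HFMCD, against 29.1, 34.9 and 41.5 CPM on chow. These narrow groups gave log2 fold changes of 0.56 in KO (SE 0.08, adjusted p = 1.84e-06, edgeR) and 0.36 in WT (SE 0.08, adjusted p = 7.23e-04, edgeR). E2f1, an activator of replication genes, stood at 4.21, 3.53, 5.79 and 4.91 CPM in KO HFMCD livers, against 1.28, 2.06 and 2.68 CPM on chow, and at 3.75, 4.53, 4.84 and 4.90 CPM in WT HFMCD livers, against 1.34, 1.42 and 1.52 CPM on chow. All HFMCD livers were higher than the chow livers of their genotype, by 1.23 in KO (SE 0.18, adjusted p = 2.54e-06, edgeR) and 1.66 in WT (SE 0.19, adjusted p = 1.11e-07, edgeR). The cyclin E genes Ccne1 and Ccne2, whose products pair with Cdk2, and E2f2 had log2 fold changes from 0.78 to 1.35 in KO and from 0.48 to 1.14 in WT.

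Per kilobase of exon, Ccnd1 had the highest mean level of the 42 genes in all 4 groups, at 25.7 in KO HFMCD, 33.7 in WT HFMCD, 12.1 in KO chow and 21.1 CPM per kilobase in WT chow livers. In KO HFMCD livers Pcna (15.7), Cdk4 (14.8), Ccnb2 (13.1) and Cdc20 (11.7 CPM per kilobase) came next, while in WT chow livers Cdk4 (10.7), Pcna (7.98) and Ccnd3 (5.39 CPM per kilobase) did. Ccnb2 and Cdc20 are mitotic genes, and in WT HFMCD livers they stood at 10.3 and 10.1 CPM per kilobase, next after Ccnd1, Cdk4 and Pcna. Exons of 13 members overlap a gene of the opposite strand, among them those of Ccnd1 (with LTO1, over 1100 bases), Gins2 (Gse1, 2758 bases) and Kif20a (Cdc23, 1271 bases), and the strand setting of the counts is not given in the sources used here, so which gene of such a pair gave a read is not known.

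S phase genes differed widely among themselves. The Mcm2 to Mcm7 proteins form the helicase that is loaded on origins in G1 and opens the DNA in S phase, yet their transcripts did not move as a unit. Log2 fold changes of HFMCD over chow in KO were 3.20 for Mcm5, 2.37 for Mcm2, 2.23 for Mcm6, 1.77 for Mcm3, 1.52 for Mcm4 and -0.20 for Mcm7. In WT they were 2.78, 1.81, 1.70, 1.61, 1.28 and -0.19 in the same order of genes. Mcm7 was the 1 of the 6 that was not called (adjusted p = 0.230 in KO and 0.280 in WT, edgeR), with 95% intervals of its log2 fold change from -0.49 to 0.09 in KO and from -0.49 to 0.11 in WT. Exons of Mcm7 also lie over Cops6 and Ap4m1 on the other strand and over the microRNA genes Mir25 and Mir93 on its own strand.

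Mcm5 stood at 8.34, 5.51, 8.44 and 10.0 CPM in KO HFMCD livers, against 0.595, 0.848 and 1.23 CPM (lowest, median, highest) on chow. WT livers had 7.0, 6.84, 6.13 and 5.51 CPM on HFMCD, against 0.559, 0.970 and 1.27 CPM on chow. The lowest HFMCD liver was thus far above the highest chow liver, and the folds were 9.17 in KO (SE of the log2 fold change 0.20, adjusted p = 1.58e-12, edgeR) and 6.85 in WT (SE 0.21, adjusted p = 7.72e-11, edgeR). Mcm3 stood at 10.5, 11.0, 11.4 and 12.0 CPM in KO HFMCD livers, against 2.81, 3.38 and 3.75 CPM on chow, and at 8.69, 8.79, 8.47 and 8.67 CPM in WT HFMCD livers, against 2.29, 2.79 and 3.35 CPM on chow. Its diet groups were apart in both genotypes (adjusted p = 4.79e-12 in KO and 1.20e-10 in WT, edgeR). Mcm7, in contrast, stood at 15.2, 11.8, 17.0 and 18.9 CPM in KO HFMCD livers, against 14.7, 17.8 and 22.5 CPM on chow, and on chow it was the most abundant of the 6 per kilobase in WT, at 3.68 CPM per kilobase.

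Of the 42 members, 36 would pass the low-count filter on chow libraries alone. The other 6 (Gins2, Uhrf1 and Cdc6 of S phase, and Ccnb1, Aurkb and Bub1 of G2 and M phase) passed with the HFMCD libraries included, so the filter favoured a higher level on HFMCD among them, and the class counts and medians include them. Gins2, a subunit of the GINS complex that travels with the helicase, stood at 4.41, 3.60, 4.24 and 5.74 CPM in KO HFMCD livers, against 0.0595, 0.357 and 0.496 CPM on chow, where it had 1 to 10 counts a library. In WT it stood at 4.00, 3.91, 3.35 and 2.96 CPM on HFMCD, against 0.160, 0.224 and 0.503 CPM on chow. Its log2 fold change was 3.81 in KO (SE 0.29, adjusted p = 6.56e-11, edgeR) and 3.64 in WT (SE 0.31, adjusted p = 9.38e-10, edgeR). Uhrf1, which recruits the maintenance DNA methyltransferase to newly copied DNA, had log2 fold changes of 3.71 in KO and 3.65 in WT, on chow counts of 1 to 8 a library. Smaller differences were found for other S phase genes. Pcna, the sliding clamp, rose by 0.92 in KO and 0.63 in WT, Tyms (thymidylate synthase) by 1.02 and 0.61, and the ribonucleotide reductase gene Rrm1 by 1.47 and 1.09. Rrm2, the other subunit's gene, rose by 0.69 in KO (adjusted p = 0.0160, edgeR) and was not called in WT, at 0.56 (adjusted p = 0.0648, edgeR). Tk1, the thymidine kinase gene, was not called, with log2 fold changes of -0.07 in KO and 0.07 in WT.

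**Figure D2:**
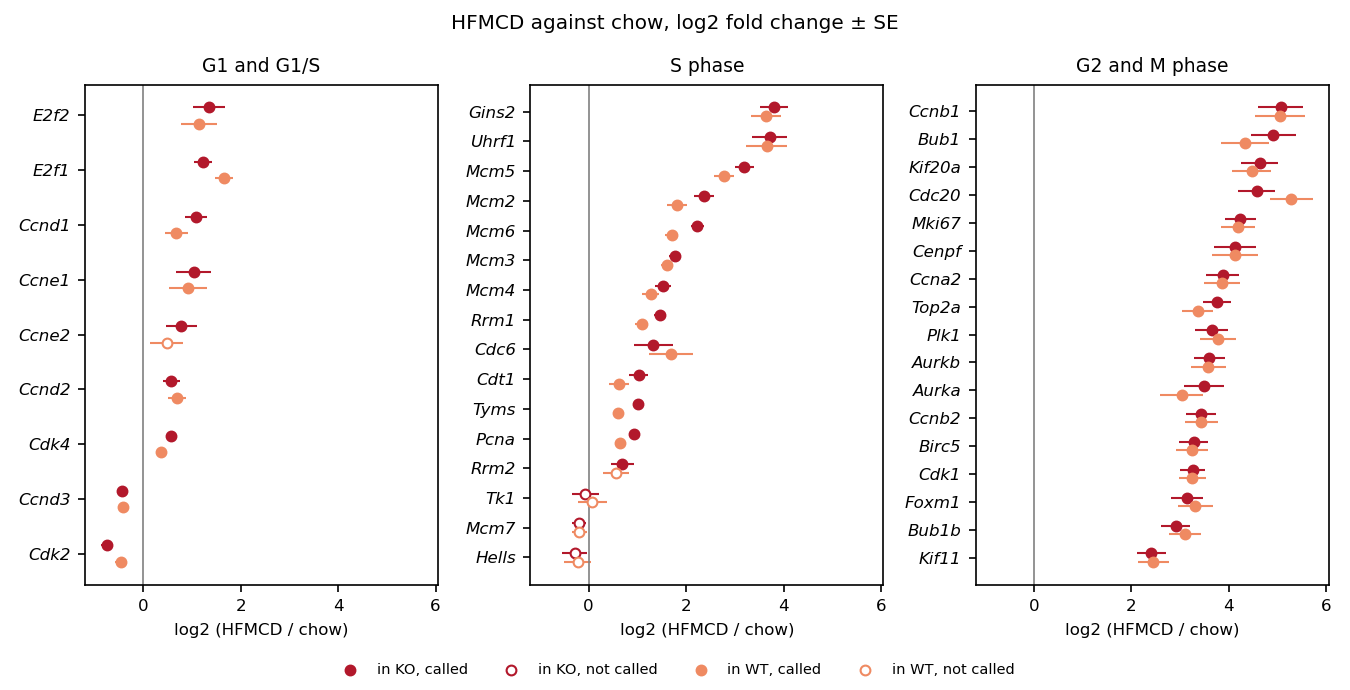
Log2 fold change of HFMCD over chow (x axis) with its standard error for each gene in KO and in WT livers, with filled points for called genes. All 17 G2 and M phase genes lie above 2 in both genotypes, while Mcm7, Hells and Tk1 lie near 0.

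G2 and M phase genes had the largest differences of the 3 classes. Log2 fold changes ran from 2.40 (Kif11, a spindle motor) to 5.06 (Ccnb1, the gene of cyclin B1) in KO and from 2.44 (Kif11) to 5.28 (Cdc20, an activator of the anaphase-promoting complex) in WT, with 15 of 17 above 3 in KO and 16 of 17 in WT. Cdk1, the kinase of mitotic entry, stood at 12.1, 7.54, 18.7 and 19.4 CPM in KO HFMCD livers, against 1.12, 1.49 and 1.85 CPM (lowest, median, highest) on chow. WT livers had 17.8, 8.32, 8.47 and 7.54 CPM on HFMCD, against 0.688, 1.11 and 1.55 CPM on chow. HFMCD livers were about an order of magnitude higher and spread widely, with a log2 fold change of 3.26 in KO (SE 0.26, adjusted p = 1.66e-10, edgeR) and 3.25 in WT (SE 0.28, adjusted p = 1.25e-09, edgeR).

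Mki67, which encodes the proliferation antigen Ki-67, stood at 57.0, 21.9, 37.1 and 74.6 CPM in KO HFMCD livers, against 1.49, 2.30 and 4.46 CPM on chow. WT livers had 56.6, 30.7, 25.0 and 29.8 CPM on HFMCD, against 1.40, 1.84 and 2.93 CPM on chow. The lowest HFMCD liver, KO replicate 2, was still above every chow liver, and the folds were 18.8 in KO (SE of the log2 fold change 0.32, adjusted p = 8.68e-10, edgeR) and 18.2 in WT (SE 0.35, adjusted p = 5.61e-09, edgeR). Top2a, the topoisomerase that untangles chromosomes, stood at 13.7, 7.98, 22.4 and 28.0 CPM in KO HFMCD livers, against 0.588, 1.49 and 2.11 CPM on chow, and at 16.2, 10.1, 8.51 and 10.6 CPM in WT HFMCD livers, against 0.895, 1.03 and 1.47 CPM on chow. Its log2 fold change was 3.75 in KO (SE 0.29, adjusted p = 2.23e-10, edgeR) and 3.35 in WT (SE 0.31, adjusted p = 6.70e-09, edgeR).

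Cdc20 stood at 27.9, 10.1, 24.5 and 25.2 CPM in KO HFMCD livers, against 0.238, 0.821 and 1.89 CPM on chow. In WT it stood at 33.3, 16.3, 13.3 and 12.8 CPM on HFMCD, against 0.244, 0.459 and 0.708 CPM on chow. The groups were far apart, with a log2 fold change of 4.57 in KO (SE 0.38, adjusted p = 2.20e-09, edgeR) and 5.28 in WT (SE 0.44, adjusted p = 3.57e-09, edgeR). Aurkb, the kinase of the chromosomal passenger complex, stood at 3.65, 2.54, 6.26 and 6.98 CPM in KO HFMCD livers, against 0.218, 0.374 and 0.632 CPM on chow, a log2 fold change of 3.60 (SE 0.32, adjusted p = 9.19e-10, edgeR). Aurkb had 4 to 15 counts in each KO chow library and Ccnb1 had 1 to 15 counts in each chow library, so the size of their folds rests on few reads. Bub1, a spindle checkpoint kinase, had 0 counts in 1 of the 7 KO chow libraries, and a count of 0 allows up to 3 counts. Aurkb, Ccnb1 and Bub1 passed the low-count filter only with the HFMCD libraries included, which favoured a rise among them. Foxm1, the transcription factor of the G2 and M programme, rose by 3.14 in KO (SE 0.33) and 3.31 in WT (SE 0.36), and Plk1, Aurka, Birc5, Bub1b, Kif20a and Cenpf, genes of spindle, kinetochore and cytokinesis, rose by 2.91 to 4.63 in KO and by 3.03 to 4.47 in WT.

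**Figure D3:**
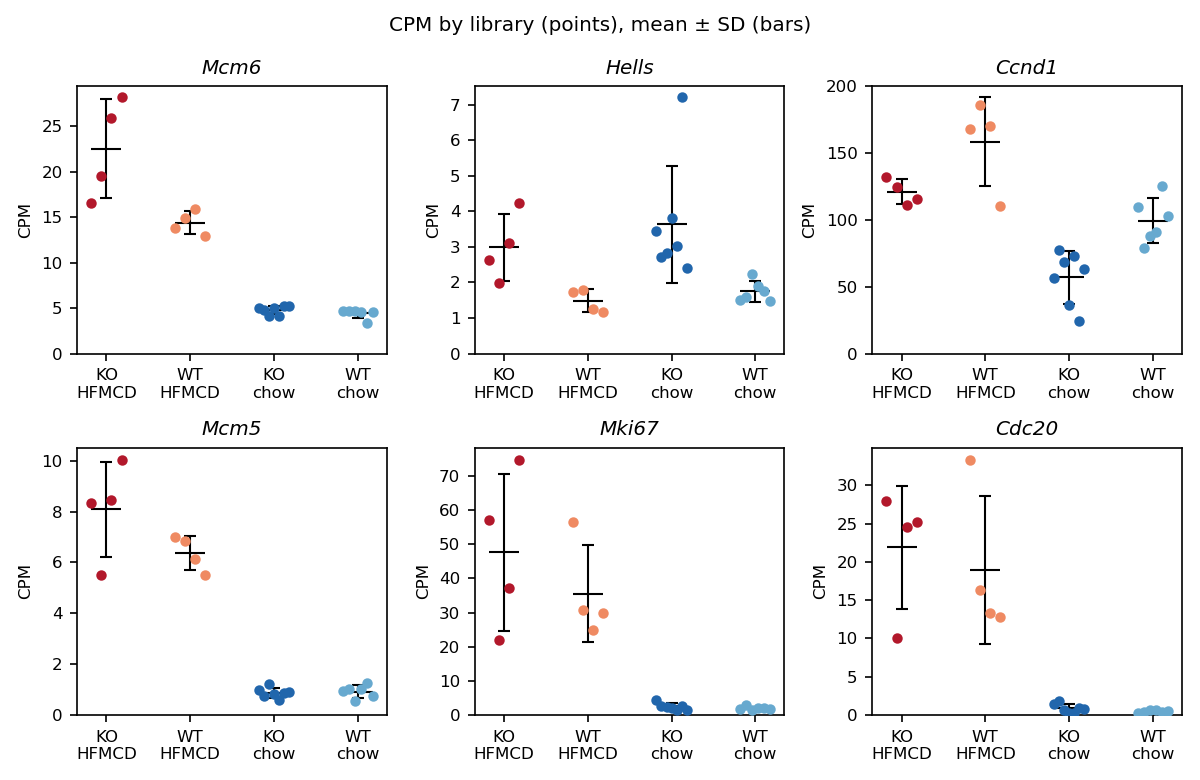
CPM in each library (points) of 6 genes by group, with mean and SD. Mcm6, Mcm5, Mki67 and Cdc20 are high in both HFMCD groups, the KO points of Hells lie above its WT points on either diet, and Ccnd1 is lowest in KO chow livers.

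Other genes of the same pathways, from lists of 100 genes of which 99 were tested, were described beside the members, and their counts read against 33.7% of all tested genes higher and 36.0% lower in KO and 29.0% and 33.6% in WT. Which of them would pass the low-count filter on chow libraries alone was not checked. Genes that passed only with the HFMCD libraries may be among them, and for such genes the filter favoured a rise on HFMCD. Of 38 genes of spindle, kinetochore and cytokinesis, 32 were called higher on HFMCD in KO and 33 in WT, with 0 lower, and 28 were above 2 on the log2 scale in each. Cdca3, a regulator of mitotic entry, rose by 3.95 in KO and 3.93 in WT, and Kif22, a chromosome motor, by 3.63 and 3.60. Of 30 genes of origin recognition, helicase loading and the fork, 23 were called higher and 2 lower in KO, and 19 higher and 0 lower in WT. Chaf1b, of the histone chaperone that follows the fork, rose by 1.96 in KO and 1.39 in WT. Dbf4, the activator of the origin-firing kinase Cdc7, rose by 1.01 in KO and 1.59 in WT.

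The lists of genes that restrain or time the cycle were shorter, and their shares of called genes differed. Of 13 checkpoint kinases and phosphatases, 10 rose and 1 fell on HFMCD in KO, and 9 rose and 2 fell in WT. Cdc25c, the phosphatase that releases Cdk1, rose by 5.37 in KO and 5.26 in WT, and Wee1, the kinase that holds Cdk1 back, by 2.05 and 1.86. Cdc25c had 0 to 3 counts in chow libraries, so the low-count filter favoured a rise on HFMCD for it, and it is included in these counts. Of 7 inhibitors of cyclin-dependent kinases, 4 were called higher in KO and 3 in WT, with 0 lower in either, the WT count being near the share of all genes. Cdkn2c, an inhibitor of Cdk4 and Cdk6, averaged 26.1 ± 2.34 CPM in KO HFMCD livers (SD, n = 4) and 10.6 ± 0.569 CPM in KO chow livers (SD, n = 7), a log2 fold change of 1.30 (SE 0.12), and rose by 1.37 in WT. Cdkn2a, the gene of p16 and ARF, rose by 3.39 in KO, on 14 to 24 counts in HFMCD and 0 to 4 in chow libraries, and by 2.96 in WT. With so few chow counts the low-count filter favoured a rise for Cdkn2a too, and it is included in the counts of inhibitors. Cdkn1c rose by 0.96 in KO and 1.10 in WT. Of 11 RB proteins and other E2F factors, 2 were called higher and 3 lower in KO, and 2 higher and 2 lower in WT, none of these shares above that of all tested genes. Rbl1, which encodes the E2F-binding protein p107, rose by 2.09 in KO and 2.18 in WT, Rb1 rose by 0.31 and 0.63, and Tfdp2, a dimer partner of E2F, fell by 0.62 in KO and by 0.37 in WT.

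Markers of other cell types moved with diet as well. The summed level of 9 macrophage markers was 1407 to 1834 CPM in HFMCD livers and 216 to 554 CPM in chow livers, and that of 8 stellate cell and matrix markers was 1129 to 1644 CPM on HFMCD and 215 to 510 CPM on chow. The 6 endothelial markers summed to 276 to 353 CPM on HFMCD and 151 to 292 CPM on chow. They overlapped between diets in KO and were apart in WT (299 to 353 and 151 to 247 CPM). The 8 hepatocyte markers summed to 92100 to 109401 CPM on HFMCD and 93736 to 142433 CPM on chow and overlapped in both genotypes, as did erythroid markers. Bile duct markers were apart within each genotype, at 76.8 to 108.2 and 25.3 to 53.6 CPM in KO and 42.5 to 50.1 and 27.4 to 38.2 CPM in WT. Neutrophil markers (12.1 to 26.5 CPM on HFMCD and 1.45 to 9.86 CPM on chow) and lymphocyte markers (10.6 to 19.8 and 2.6 to 9.24 CPM) did not overlap. Which cells carried the cell cycle transcripts was not tested, and the part of these cell types in the diet differences was not tested either.

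Livers on HFMCD differed from each other, above all in G2 and M phase genes. Within groups the median SD of log2 CPM over these 17 genes was 0.77 in KO HFMCD, 0.52 in WT HFMCD, 0.67 in KO chow and 0.47 in WT chow livers. Over all tested genes it was 0.21, 0.17, 0.23 and 0.26 in the same groups. On chow several G2 and M phase genes had few counts (Bub1 0 to 6 a library in KO and 1 to 6 in WT), so counting error adds to their SD there. The SD of S phase genes was 0.31, 0.18, 0.28 and 0.33, closer to that of all genes. The wide spread was shared between genes. Their summed level was 285, 108.1, 272 and 345 CPM in KO HFMCD replicates 1 to 4 and 316, 174, 149 and 153 CPM in WT HFMCD replicates 1 to 4, against 12.4 to 27.7 CPM in KO chow and 11.2 to 18.1 CPM in WT chow livers. KO HFMCD replicate 2 was the lowest of the 8 HFMCD livers for 16 of the 17 genes, and WT HFMCD replicate 1 was the highest of the 4 WT HFMCD livers for all 17. The same liver was thus lowest in KO and the same one highest in WT for all 17, although most of these single values did not stand apart from their group by Dixon's test, and the KO livers held both ends of the summed range.

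Within KO the S phase genes had largely the same highest and lowest livers as the G2 and M phase genes, and within WT largely the same highest liver. KO HFMCD replicate 4 was the highest of the 4 KO HFMCD livers for 13 of 16 S phase genes and 12 of 17 G2 and M phase genes, and WT HFMCD replicate 1 was the highest of the 4 WT HFMCD livers for 10 of 16 and 17 of 17. The lowest WT HFMCD liver was replicate 4 for 7 and replicate 3 for 6 of the 16 S phase genes. For the 17 G2 and M phase genes it was replicate 3 for 10 and replicate 4 for 7. Over both genotypes the order differed more. KO HFMCD replicate 4 was the highest of the 8 HFMCD livers for 13 of 16 S phase genes and for 8 of 17 G2 and M phase genes. KO HFMCD replicate 2 was the lowest of the 8 for 1 of 16 S phase genes, although it was the lowest of the 4 KO HFMCD livers for 12 of them. Summed S phase levels were 172, 159, 211 and 229 CPM in KO HFMCD replicates 1 to 4, all above the 157, 149, 141 and 139 CPM of WT HFMCD replicates 1 to 4. KO HFMCD replicate 2 did not stand low in other cell types throughout, with 1834 CPM of macrophage markers, 108.2 CPM of bile duct markers and 1644 CPM of stellate cell and matrix markers, the highest of the 8 HFMCD livers in each. It was the lowest of the 8 for erythroid markers, at 25.8 CPM against 39.2 to 71.1 CPM in the others, and for neutrophil markers, at 12.1 CPM against 14.6 to 26.5 CPM, and for endothelial markers, at 276 CPM against 287 to 353 CPM. WT HFMCD replicate 1 had the most erythroid transcripts, at 71.1 CPM. The part of these cells in the spread between livers was not tested.

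**Figure D4:**
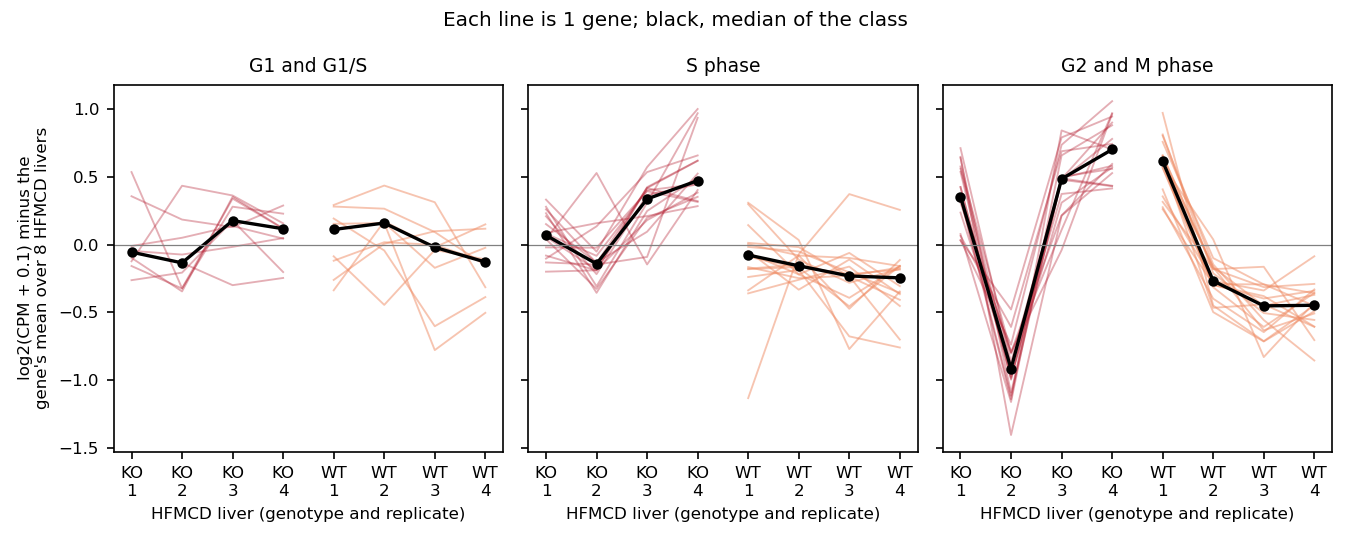
Log2(CPM + 0.1) of each gene (thin lines) in the 8 HFMCD livers, minus the gene's mean over these livers, by class, with the class median in black. G2 and M phase genes are low together in KO replicate 2 and high in WT replicate 1, and S phase genes spread less.

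KO was compared with WT on HFMCD to ask which members differed with loss of hepatocyte Mboat7 under this diet. Mcm6 was the 1 member called, and it was higher in KO. It stood at 16.6, 19.6, 25.9 and 28.2 CPM in KO HFMCD livers, against 13.8, 14.8, 15.9 and 13.0 CPM in WT HFMCD livers. The lowest KO liver was just above the highest WT liver, and the log2 fold change was 0.65 (SE 0.14, adjusted p = 0.0481, edgeR). Mcm6 lies on chromosome 1, 128331590 to 128359664 on the minus strand of GRCm38. The call was close to the threshold. Of the 8 HFMCD libraries, only KO replicate 1 could be left out with the call kept (adjusted p = 0.0290), and without any other 1 of the 8 the adjusted p lay between 0.108 and 0.189, with log2 fold changes from 0.52 to 0.71.

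Calls among all genes were few here, at 0.223% higher and 0.0957% lower, against 1 member of 42 higher and 0 lower. Log2 fold changes were positive for 16 of 16 S phase genes (median 0.38), for 17 of 17 G2 and M phase genes (median 0.36) and for 6 of 9 G1 and G1/S genes (median 0.03), beside 51.1% of all tested genes and a median of 0.01. S phase and G2 and M phase genes largely shared their highest and lowest livers within KO, so these signs are not separate observations. For 4 S phase genes every KO library lay above every WT library (Mcm3, Mcm6, Pcna and Hells, Mcm3 with 10.5 to 12.0 CPM in KO and 8.47 to 8.79 CPM in WT), as it did for 4.96% of tested genes, and for 0 G2 and M phase genes. No member lay below throughout, as 3.66% of tested genes did. The G2 and M phase median rested on single livers, since it was 0.64 without KO HFMCD replicate 2, 0.14 without KO HFMCD replicate 4 and 0.70 without WT HFMCD replicate 1. The S phase median stayed between 0.32 and 0.49 with any 1 of the 8 left out. Bile duct markers, of which 8 were summed, stood at 93.6, 108.2, 76.8 and 77.4 CPM in KO HFMCD livers and 50.1, 43.3, 45.5 and 42.5 CPM in WT HFMCD livers, and stellate cell and matrix markers at 1417 to 1644 CPM in KO and 1129 to 1389 CPM in WT HFMCD livers. Endothelial markers stood at 276 to 301 CPM in KO and 299 to 353 CPM in WT HFMCD livers. The part of these cells in the levels of the members was not tested.

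In the other classes no member was called. Top2a, with the smallest p of the G2 and M phase genes, had a log2 fold change of 0.66 (SE 0.30, adjusted p = 0.463, edgeR), on values that overlapped between genotypes. Ccnd3, with the smallest p of the G1 and G1/S genes, had -0.25 (SE 0.12, adjusted p = 0.493, edgeR). The other S phase genes nearest to the threshold were Hells, Tyms, Pcna and Rrm1, with log2 fold changes of 1.0, 0.43, 0.35 and 0.44 and adjusted p-values of 0.178, 0.179, 0.187 and 0.220 (edgeR), and these 4 were named after their values were seen. Limma-voom with sample quality weights called Mcm3, Mcm6, Rrm1 and Tyms. The 0.223% of all tested genes called higher belongs to edgeR, and the share that limma-voom called is not given here. These 4 calls are therefore not read as a result about the members.

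**Figure D5:**
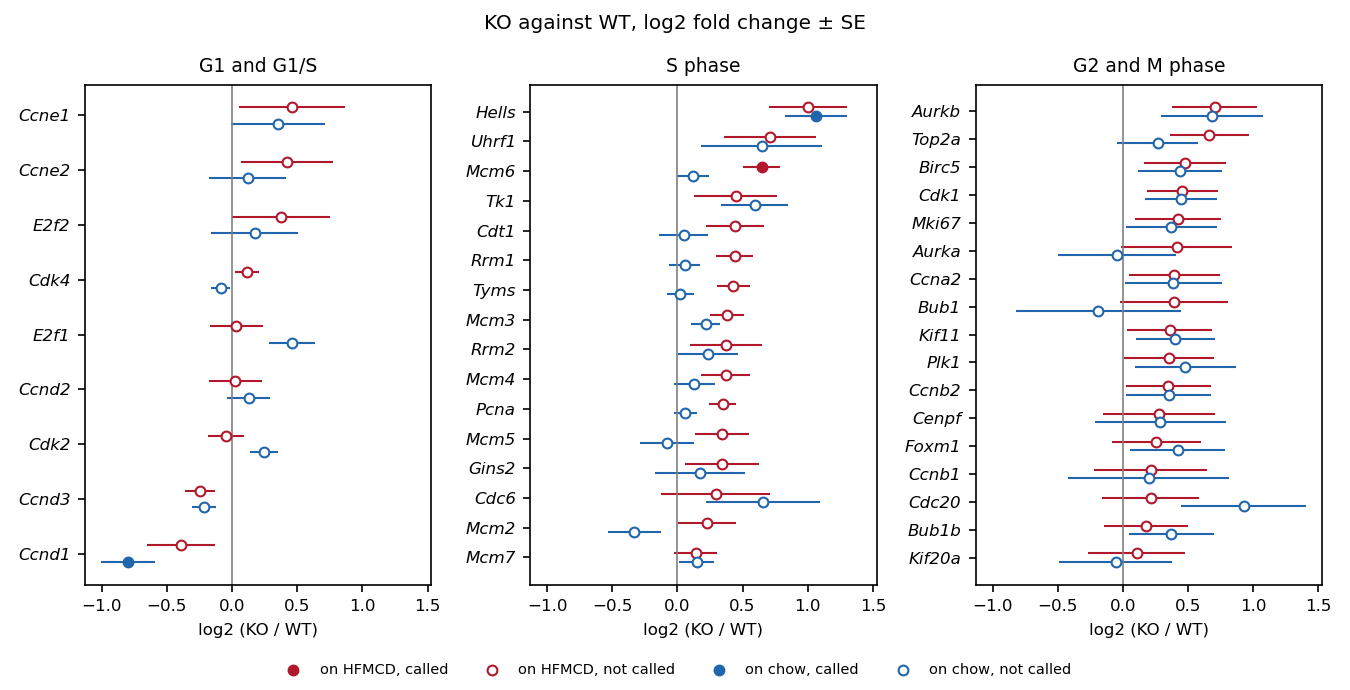
Log2 fold change of KO over WT (x axis) with its standard error for each gene on HFMCD and on chow, with filled points for called genes. On HFMCD all S phase and G2 and M phase genes lie right of 0 and Mcm6 alone is called, and on chow Hells is called higher and Ccnd1 lower.

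On chow, KO against WT gave 1 member higher and 1 lower, beside 0.561% and 1.61% of all tested genes. Hells, a chromatin remodeller of the SNF2 family needed for DNA methylation, lies on chromosome 19, 38930915 to 38971051 on the plus strand. It had a lowest, median and highest level of 2.42, 3.04 and 7.23 CPM in KO chow livers, against 1.47, 1.69 and 2.24 CPM in WT chow livers. Every KO liver lay above every WT liver, as for 0.236% of tested genes, and KO chow replicate 6 stood far above the rest. The log2 fold change was 1.06 (SE 0.24, adjusted p = 0.0248, edgeR), and the call was lost without KO chow replicate 4 or 6 or WT chow replicate 5 or 6, with adjusted p-values of 0.0506, 0.0602, 0.0675 and 0.0649. On HFMCD Hells stood at 2.62, 1.99, 3.11 and 4.23 CPM in KO and 1.73, 1.80, 1.25 and 1.18 CPM in WT, again without overlap, but was not called there.

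Ccnd1 was lower in KO on chow. Its levels of 24.2, 63.0 and 77.2 CPM (lowest, median, highest) in KO chow livers lay below the 79.1, 96.9 and 125 CPM of WT chow livers, as was so for 0.421% of tested genes. KO chow replicates 6 and 4 were the lowest, at 24.2 and 36.4 CPM. The log2 fold change was -0.80 (SE 0.21, adjusted p = 0.0475, edgeR). The gene lies on chromosome 7, 144929931 to 144939925 on the minus strand. The call was lost without KO chow replicate 1, 3, 4, 6 or 7 or WT chow replicate 1, 4, 5 or 6, with adjusted p-values from 0.0550 to 0.124 and log2 fold changes from -0.83 to -0.66. It was also lost without both KO chow libraries richest in transcripts of other tissues (-0.83, adjusted p = 0.102, edgeR) and without all 4 such chow libraries (-0.78, adjusted p = 0.180, edgeR). On HFMCD the difference was -0.39 (SE 0.26, adjusted p = 0.680, edgeR), with WT HFMCD replicate 4 at 110.3 CPM, below all 4 KO livers.

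G2 and M phase genes were low in all chow livers and 0 of 17 were called between genotypes, with a median log2 fold change of 0.37. Cdc20, with the smallest p of this class on chow, stood at 0.238, 0.821 and 1.89 CPM (lowest, median, highest) in KO and 0.244, 0.459 and 0.708 CPM in WT chow livers, and the log2 fold change was 0.93 (SE 0.48, adjusted p = 0.319, edgeR). KO chow replicate 1 was the highest chow liver for 8 of the 17 genes. It is 1 of the 2 KO chow libraries richest in transcripts of other tissues, and without both the median was 0.18, and 0.15 without all 4 such chow libraries. S phase genes had a median of 0.14 and G1 and G1/S genes 0.13. As on HFMCD, most signs were positive, for 14 of 17 G2 and M phase, 14 of 16 S phase and 6 of 9 G1 and G1/S genes, beside 52.1% of all tested genes.

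Whether the KO effect differed between the diets was tested directly as a difference of log2 fold changes, which is also the difference of the diet effect between genotypes. With edgeR 0 of the 42 members and 0 of all tested genes were called (0%), and 4 members had an unadjusted p under 0.05, all with a positive difference. DESeq2 and limma-voom also called 0 members. The smallest p of each class belonged to Mcm6 (0.53, SE 0.19, adjusted p = 0.327, edgeR), Cdk4 (0.20, SE 0.12, adjusted p = 0.612, edgeR) and Cdc20 (-0.71, SE 0.61, adjusted p = 0.761, edgeR). The 95% interval for Mcm6 ran from 0.16 to 0.90 before adjustment. Of the 99 other pathway genes, 0 were called between genotypes on either diet or in this difference.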

How the data were processed

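Whole-liver RNA of 21 mice was sequenced, and the authors deposited 1 file of raw counts per gene symbol for each library, per the file headers, with no normalization recorded. Per the submitters' processing notes, which give no role for each, the tools were featureCounts 1.6.1, STAR 2.6.1d and CASAVA 2.17, and the genome build was GRCm38. The annotation release, strand setting and read filters are not given in the sources used here. Symbols of all 55418 genes matched GENCODE M21, which gave positions and exon lengths. Libraries within groups were compared and 0 pairs were identical.

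The counts were taken into edgeR 4.0.16 (R 4.3.3), where filterByExpr over the 4 groups kept 15677 genes, libraries were scaled by TMM, and 1 robust quasi-likelihood model with 4 group means was fitted to all 21 libraries, with two-sided F tests of 5 contrasts and Benjamini-Hochberg adjustment over all tested genes at 0.05. CPM divides by the summed counts of tested genes after TMM scaling. The SE of a log2 fold change is its size divided by the square root of F, and 95% intervals use it. SDs of log2 CPM use a prior count of 2. Levels per kilobase use summed exon lengths. Counting error alone is covered by the floor of 3 counts, since reads carry no molecular identifiers. Titles carry separate animal numbers, so libraries were treated as separate animals.

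The members, the classes, the 5 pathway lists and the marker lists were chosen with earlier results of these data known. Values by library are given for members called in a KO contrast, otherwise for the member of a class with the smallest p there, and for up to 4 called members of each class with the smallest p in each diet contrast. Up to 2 genes of each pathway list were named per diet contrast by the same order. A result this rule would name is not reported here. Others named (among them Mcm7, Uhrf1, Tk1, Kif11 and Ccnb1) were picked with their values in view. Of the members, 9 have a pseudogene copy of at least 95% identity over at least 200 bases, on which at most 0.654% of the member's counts fell. Alternatives were DESeq2 1.42.0, limma-voom (limma 3.58.1), RLE and upper-quartile scaling, no filter, a filter of 1 CPM in at least 4 libraries, fits to the compared groups alone, fits without chow libraries rich in other tissues, and leaving out each library. The main procedure was tested on simulated data.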

Additional observations from a re-analysis of the deposited data

Results flagged for a closer look

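In each group of 4 to 7 livers, the value farthest from the rest was compared with the group's range by Dixon's test, for each of the 42 members. The test used log2 CPM with a prior count of 2, whereas the values printed below are CPM. Of 168 groups checked 15 held such a value, and chance marks about 1 in 20. The checks were not independent, since G2 and M phase genes shared their lowest KO and their highest WT HFMCD liver. The share over all tested genes was not counted, so no excess is read from the 15. Of the 8 G2 and M phase cases, 4 were in KO HFMCD replicate 2 and 3 in WT HFMCD replicate 1.

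KO HFMCD replicate 2 stood alone at the low end for Ccnb2 (7.83 CPM, against 22.7 to 26.3 CPM in the other KO HFMCD livers), Plk1 (3.64, against 10.4 to 11.0), Cdc20 (10.1, against 24.5 to 27.9) and Foxm1 (2.68, against 6.70 to 8.04 CPM). WT HFMCD replicate 1 stood alone at the high end of its group for Cdk1 (17.8 CPM, against 7.54 to 8.47), Kif11 (11.0, against 5.57 to 5.98) and Cenpf (18.4, against 5.65 to 6.81 CPM). Aurka was low in KO chow replicate 7, at 0.228 CPM against 0.580 to 0.969 CPM.

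Among S phase genes, Hells was high in KO chow replicate 6 (7.23 CPM, against 2.42 to 3.81 CPM) and Cdc6, which loads the helicase, in KO HFMCD replicate 4 (1.36 CPM, against 0.588 to 0.616 CPM). Mcm6 was low in WT chow replicate 5 (3.39 CPM, against 4.53 to 4.69), Uhrf1 in WT HFMCD replicate 4 (1.46, against 2.06 to 2.19) and Tk1 in WT chow replicate 6 (2.41, against 8.83 to 15.0 CPM). Among G1 and G1/S genes, Ccnd3 was high in KO HFMCD replicate 3 (36.8 CPM, against 27.1 to 28.2) and E2f2 low in WT HFMCD replicate 2 (1.68, against 2.15 to 2.26 CPM).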

How the results depend on the processing

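Counts of members called between diets ranged from 37 to 39 in KO and from 35 to 39 in WT over all alternatives. In each diet contrast the up to 4 called members of each class with the smallest p were followed singly. None of these changed its sign or lost its call. The other members named were not followed singly in the diet contrasts. The median of all genes in the KO diet contrast shifted to -0.13 with DESeq2 and to -0.11 without a low-count filter. Without KO HFMCD replicate 4 the S phase median of that contrast was 1.16, against 1.40. Counts between genotypes were small and moved with the settings, and the shares of all genes called in each setting are not given here. On HFMCD the 1 call became 4 with limma-voom and 0 without a filter, in the fit to the compared groups alone, with RLE scaling and with upper-quartile scaling, and leaving out 1 library gave 0 to 1. On chow the 2 calls became 1 without both KO chow libraries richest in other tissues, without all 4 such chow libraries, without a filter and with upper-quartile scaling, 0 with limma-voom, and 0 of 36 tested in the fit to chow libraries alone; leaving out 1 library gave 0 to 2. Over all alternatives the adjusted p ran from 0.00563 to 0.189 for Mcm6 on HFMCD, from 0.00251 to 0.0760 for Hells on chow and from 0.00390 to 0.180 for Ccnd1 on chow. The count in the difference of the KO effect was 0 throughout. The median of G1 and G1/S genes between genotypes lay near 0, from -0.05 to 0.12 on HFMCD and from -0.04 to 0.22 on chow. The causes were not tested. Chow counts of several G2 and M phase genes were under 10 a library, which limits the precision of their folds. No paired analysis was possible because the labels give no replicate numbers and no animal number shared between groups, and the replicate numbers used here only name libraries.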
